A study of Homo sapiens with 6 samples.

Results

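Glycolysis and pyruvate handling were read here through 40 listed genes, from the glucose carriers to the pyruvate dehydrogenase complex and its kinases. Members were taken by gene symbol, from probe sets annotated to exactly 1 gene, and each gene was read by its brightest probe set over all 6 arrays. This gave 38 members among the 11963 genes tested, and SLC16A1 and SLC16A3 were not analysed here. The cells were HCT116, an established line from a human colon cancer, grown in DME medium with serum. The NFX1-91 shRNA group (3 arrays) stably expressed a hairpin against NFX1-91, and the control shRNA group (3 arrays) stably expressed one against β-galactosidase, a bacterial enzyme. Both hairpins came in the lentiviral vector FUGW, so both groups were infected cells, and they were compared at a single time. NFX1-91 is one of the splice forms of NFX1, whose zinc finger protein is known to repress TERT. Whether a group's arrays were separate cultures, and whether the infected cells were a pool or a clone, is not in the labels. The p-values thus rest on array-to-array spread that could be technical.

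Glycolysis splits glucose into pyruvate in the cytosol and yields ATP and NADH. Its pace is set mainly at glucose entry, hexokinase, phosphofructokinase and pyruvate kinase. Pyruvate then either becomes lactate, which restores NAD+, or enters mitochondria, where the pyruvate dehydrogenase complex turns it into acetyl-CoA unless pyruvate dehydrogenase kinases switch the complex off. Colon cancer cells in culture are known for strong glycolysis with lactate release even where oxygen is present.

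A value below called a signal is the deposited intensity multiplied by 1 factor for all arrays, so that each array averages 500. Fold changes are differences of log2(signal + 16), NFX1-91 shRNA minus control shRNA, and for dim genes this understates the change. The arrays correlated at 0.992 to 0.995 within groups and at 0.983 to 0.985 between groups (Pearson, over probe sets). Signals for NFX1, the gene that the hairpin is aimed at, came from 3 probe sets. Which splice forms each probe set detects was not tested. The brightest had signals of 124, 139 and 138 in NFX1-91 shRNA arrays, against 159, 144 and 139 in control shRNA arrays (log2 fold change -0.13, SE 0.096, adjusted p = 0.4 over probe sets, exact permutation p = 0.2). The dimmest had 8.87, 8.83 and 4.56 in NFX1-91 shRNA arrays, against 16.8, 17.7 and 24.4 in control shRNA arrays (-0.60, SE 0.143, adjusted p = 0.0137, exact permutation p = 0.1, the smallest that 3 against 3 arrays allow), and its change read -1.32 with an offset of 1, -1.45 with no offset and -0.23 with an offset of 64. The middle one had -0.06 (adjusted p = 0.775). Of 12 colon epithelium markers 2 were called higher, KRT18 (0.54) and KRT8, and 3 lower, EPCAM, CDH1 and ELF3. These were 41.7% of the list, beside 32.5% of all genes called. Several were bright, with EPCAM at 3918 ± 31.4 and 4350 ± 121, the cadherin CDH1 at 452 ± 14.1 and 647 ± 25.1, and the keratin KRT8 at 7065 ± 121 and 5556 ± 172 in NFX1-91 shRNA and control shRNA arrays (SD, n = 3 each). The intestinal factors CDX2 (72.3 ± 4.72 and 66.9 ± 3.60) and CDX1 (62.0 ± 5.22 and 45.5 ± 3.18) and the antigen gene CEACAM5 (30.4 ± 1.27 and 25.8 ± 1.42) were dim, and the brush border gene VIL1 lay at 3.91 ± 4.31 and 5.01 ± 5.21. Of the markers of other cells, 0 of 8 fibroblast, 1 of 7 blood cell and 0 of 7 skeletal muscle genes passed in limma, and the same numbers had an unadjusted p under 0.05. Below the median brightness of all genes lay 7 of 8, 7 of 7 and 7 of 7 of these lists. Of all genes that dim, 12.3% were called. A call marks a change between the groups and not presence. The brightest of these markers was the fibroblast gene COL1A1, at 193 ± 18.7 and 189 ± 18.6. The blood cell gene that passed was HBB, at 49.9 ± 8.72 and 31.9 ± 3.33, and the summed signals of the blood list overlapped between the groups (161 to 210 and 163 to 179). Their part in the results below was not tested.

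Of the 38 members 9 rose and 6 fell in cells with the NFX1-91 hairpin, by limma with Benjamini-Hochberg adjustment over all genes at 0.05. The risers were the glucose carriers SLC2A1 and SLC2A3, the hexokinases HK1 and HK2, the platelet phosphofructokinase PFKP, the regulator PFKFB3, LDHA, PDHA1 and DLD. Those that fell were triose phosphate isomerase TPI1, the mitochondrial PEP carboxykinase PCK2, PDHX, ENO2, PFKL and the pyruvate kinase PKM. These 15 calls were 39.5% of the members, beside 32.5% of all genes called, 14.7% higher and 17.8% lower. The groups did not overlap for 21 of the 38 members, beside 43.5% of all genes. The median log2 fold change was 0.08 over members and 0.00 over all genes. With share and median this near to those of all genes, the list as a whole did not stand out, and what it shows lies in its single members.

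**Figure D1:**
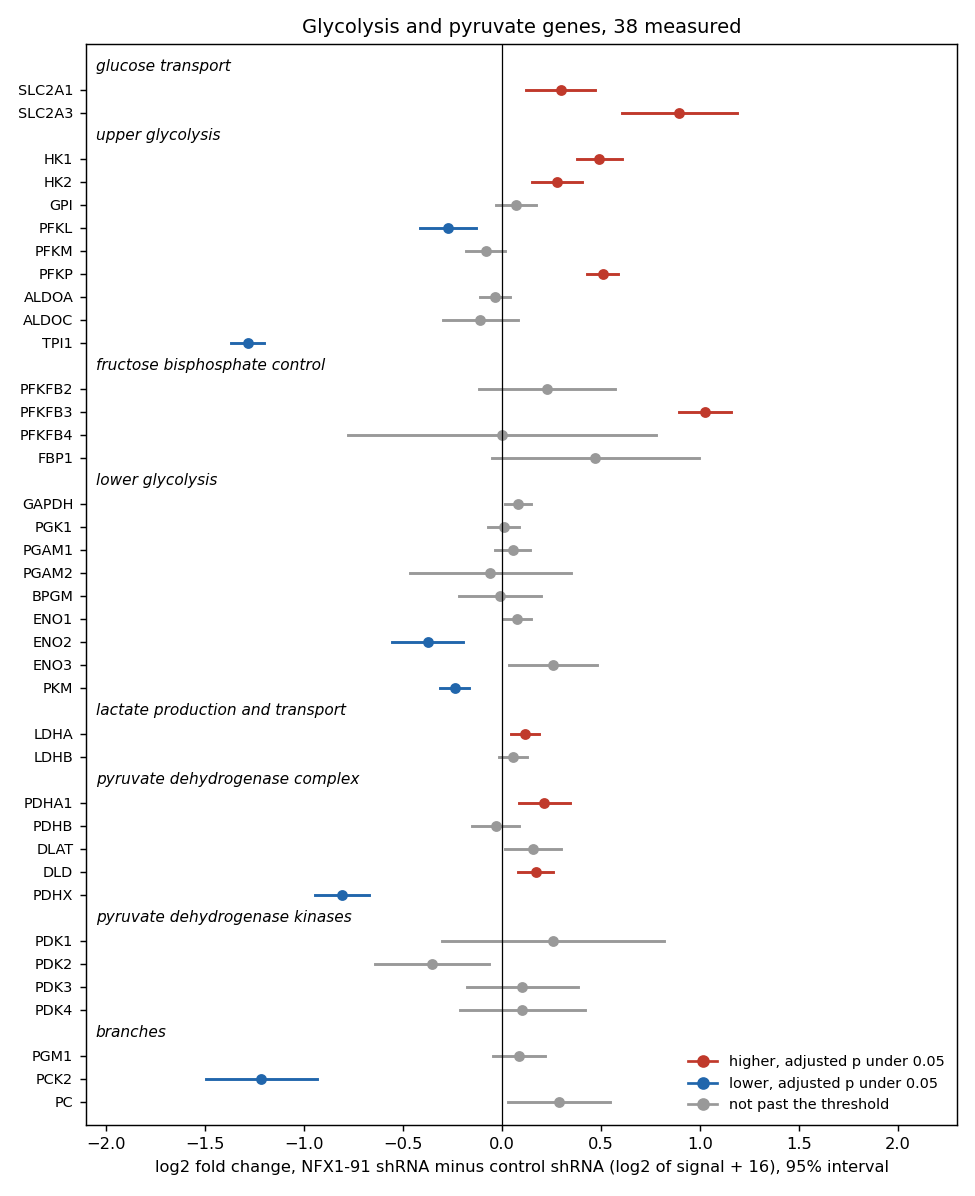
Log2 fold change of the 38 measured members (points) with 95% intervals from limma (lines), NFX1-91 shRNA minus control shRNA on the log2(signal + 16) scale, grouped by role and coloured by call. TPI1 (-1.28), PCK2 (-1.21) and PFKFB3 (1.03) lie farthest from 0, and most bright enzymes of lower glycolysis lie close to it.

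On the log2(signal + 16) scale 3 members changed at least 2-fold, TPI1 and PCK2 downward and PFKFB3 upward, as did 1.84% of all genes. With an offset of 1 in place of 16 the dim carrier SLC2A3 also passed 2-fold (1.09). The stretches of genome just upstream of these 3 genes are printed to show where their transcription starts. They come from RefSeq promoter windows on GRCh38.p14, plus strand, and end at the last base before the annotated gene. They cover chr12:6867281-6867419 for TPI1, chr14:24094061-24094170 for PCK2 and chr10:6144671-6144920 for PFKFB3. Capitals mark the core of a hypoxia response element (ACGTG or GCGTG on either strand), which in these stretches occurs 1 time, before PFKFB3. RefSeq has a second window for TPI1, with 2 cores, and for PFKFB3, with 2 cores, neither of which is printed. The 2 cores of that PFKFB3 window are 1 CACGTG, counted on both strands.
TPI1: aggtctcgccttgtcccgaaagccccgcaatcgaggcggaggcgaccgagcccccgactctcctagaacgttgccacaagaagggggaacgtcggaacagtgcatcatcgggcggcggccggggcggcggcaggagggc
PCK2: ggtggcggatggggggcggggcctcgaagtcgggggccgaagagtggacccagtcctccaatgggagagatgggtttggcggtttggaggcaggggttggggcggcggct
PFKFB3: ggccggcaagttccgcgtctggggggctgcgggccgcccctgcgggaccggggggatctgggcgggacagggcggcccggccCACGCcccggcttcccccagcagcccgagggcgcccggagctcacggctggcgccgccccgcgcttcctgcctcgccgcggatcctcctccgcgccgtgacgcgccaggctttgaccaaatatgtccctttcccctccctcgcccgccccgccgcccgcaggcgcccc
RefSeq windows were at hand for 36 of the 38 members, 67 windows in all since many genes have several starts. In their first 250 bases, 36 of the 67 windows (53.7%) held the hypoxia core, as did 51.2% of the windows of all genes tested. For TPI1 and PCK2 these 250 bases run past the annotated start of the gene, beyond the stretches printed. The E-box CACGTG, which contains the core, was in 8 of 67 (11.9%), beside 7.74%. By windows, the core was in 11 of 21 for members that rose and in 4 of 8 for members that fell. A match is a run of letters and not a shown binding site.

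Glucose carriers were higher. SLC2A1 (GLUT1), the general glucose carrier of growing cells, had signals of 1453, 1428 and 1428 in NFX1-91 shRNA arrays, against 1290, 1014 and 1212 in control shRNA arrays (log2 fold change 0.30, SE 0.0772, adjusted p = 0.0142). The groups did not overlap, and the control arrays spread more widely. Its call ended without NFX1-91 shRNA replicate 1 (adjusted p = 0.0521), without NFX1-91 shRNA replicate 2 (0.0563) and with no variance trend (0.0663), and without control shRNA replicate 2 its change was 0.20 (adjusted p = 0.0242). The dim second SLC2A1 probe set, not shared with other transcripts, rose by 0.46 (adjusted p = 0.0435 over probe sets, of which 25.7% were called), above 1.5 times the main value. SLC2A3 (GLUT3), a high affinity carrier best known from neurons, was dim and had 90.0, 102 and 119 in NFX1-91 shRNA arrays, against 54.8, 43.7 and 46.3 in control shRNA arrays (0.90, SE 0.131, adjusted p = 0.000528). Its lowest NFX1-91 shRNA array lay well above its highest control array. The change read 1.09 with an offset of 1 (adjusted p = 0.000473) and 0.58 with an offset of 64 (adjusted p = 0.000557). Its other 2 single-gene probe sets rose as well, by 0.74 (adjusted p = 0.00226) and 0.45 (adjusted p = 0.0286). All SLC2A3 probe sets are of the kinds (_s_at and _x_at) that may also bind related transcripts. Of all probe sets, 12% were called higher.

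Both hexokinases, which trap glucose in the cell as glucose phosphate, were higher. HK1, the constitutive form, had 1071, 1107 and 1010 in NFX1-91 shRNA arrays, against 771, 745 and 736 in control shRNA arrays (0.49, SE 0.0514, adjusted p = 6.57e-05). HK2, the inducible form of many tumours, had 565, 586 and 615 against 492, 484 and 472 (0.28, SE 0.0569, adjusted p = 0.00413). Groups were apart in both genes. A second HK2 probe set was near background, with means of 35.2 and 43.2 (-0.21, adjusted p = 0.322), and by the mean of both probe sets HK2 had a log2 fold change of 0.03 (adjusted p = 0.816). The isomerase GPI, which follows hexokinase, averaged 4107 ± 246 in NFX1-91 shRNA arrays and 3907 ± 99.9 in control shRNA arrays and did not pass (0.07, 95% interval -0.03 to 0.17, adjusted p = 0.294).

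The 3 phosphofructokinase genes, whose products catalyse the committed step, did not move together. PFKP, the platelet form, had 3107, 3025 and 3057 in NFX1-91 shRNA arrays, against 2191, 2132 and 2117 in control shRNA arrays (0.51, SE 0.0347, adjusted p = 6e-06). PFKL, the liver form, had 379, 401 and 376 against 464, 452 and 493 (-0.27, SE 0.0626, adjusted p = 0.0075). PFKM, the muscle form, averaged 1387 ± 27.6 and 1469 ± 50.7 and did not pass (-0.08, 95% interval -0.18 to 0.02, adjusted p = 0.197). PFKP was thus the riser and PFKL the one that fell, each with groups that did not overlap. The second PFKL probe set read -0.16 (adjusted p = 0.162). The change of PFKL was lower than that of PFKP by 0.78 on the log2 scale (SE 0.0576), and that of PFKM by 0.59 (SE 0.0449), as the change in their ratio within arrays. The exact two-sided permutation p was 0.1 for each, and 0.157 adjusted over 11 isozyme and step pairs compared, by a test that cannot go below 0.1 with 3 against 3 arrays.

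PFKFB3 makes and removes fructose bisphosphate of the signalling kind, the strongest activator of phosphofructokinase, with the balance far towards making it. It had 695, 724 and 746 in NFX1-91 shRNA arrays, against 357, 349 and 332 in control shRNA arrays. This was a 2.04-fold rise (1.03, SE 0.0585, adjusted p = 2.01e-06), and every NFX1-91 shRNA array lay far above every control array. A single probe set reads the gene. Its relatives PFKFB2 (52.4 ± 11.4 and 42.0 ± 5.08) and PFKFB4 (23.8 ± 15.3 and 24.5 ± 16.6 in NFX1-91 shRNA and control shRNA arrays) were dim and did not pass. FBP1, the gluconeogenic phosphatase that undoes the phosphofructokinase step, was as dim at 29.5 ± 7.46 and 17.6 ± 9.90 (0.47, 95% interval -0.05 to 0.99, adjusted p = 0.162). The used PFKFB2 probe set read 0.23. A dimmer one, with means of 14.6 and 27.0, read -0.50 (adjusted p = 0.0524 over probe sets), with groups that did not overlap.

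**Figure D2:**
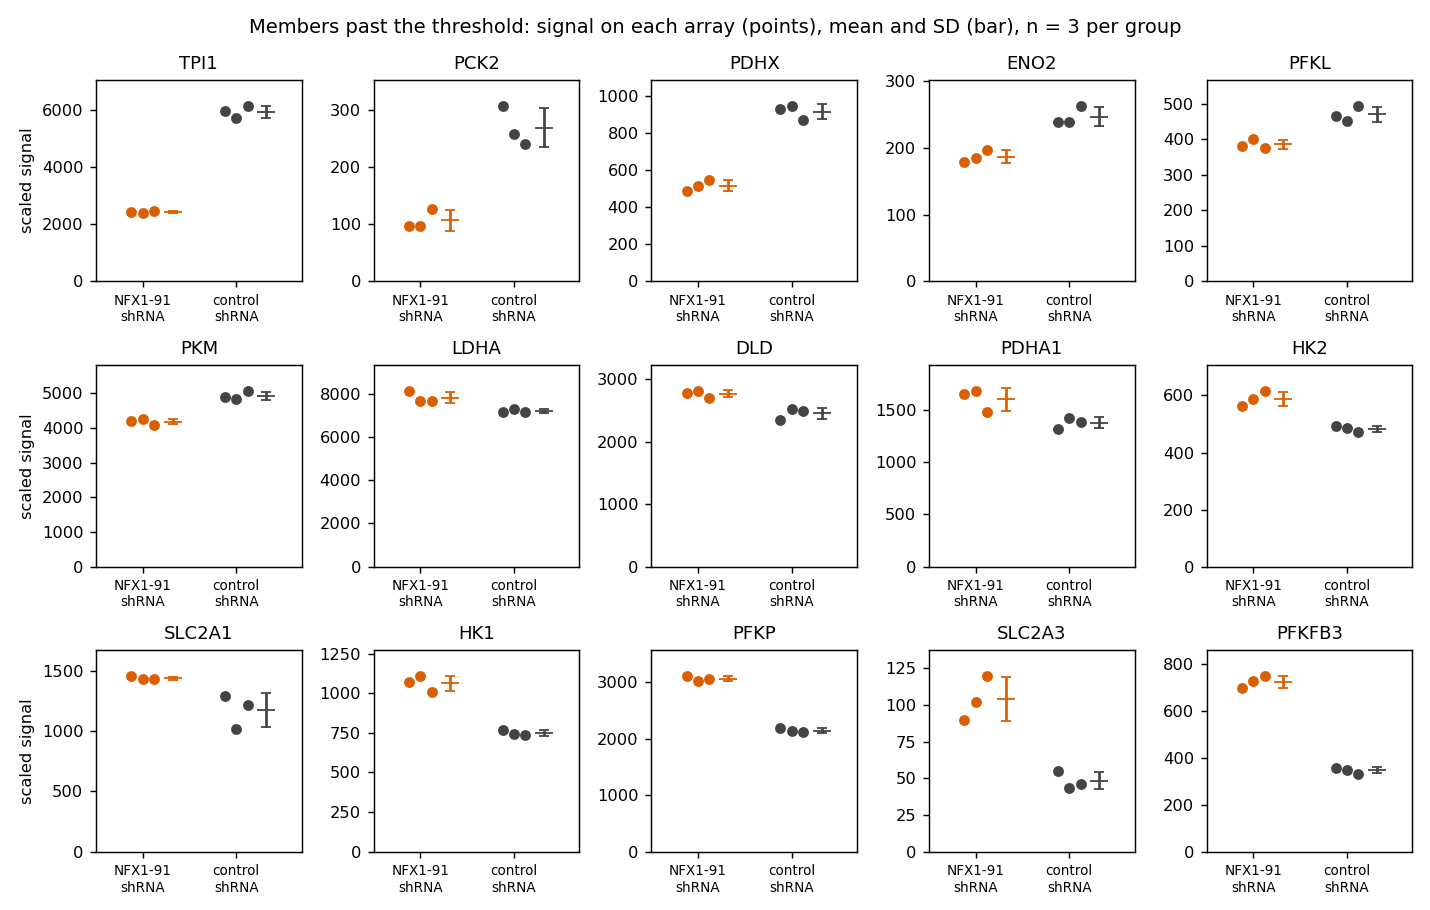
Scaled signal on each array for the 15 members past the threshold, ordered from the largest fall to the largest rise, with NFX1-91 shRNA at the left of each panel, control shRNA at the right, and the mean and SD beside the points. The 3 arrays of a group lie apart from those of the other group in all 15 panels, widely for TPI1, PCK2, PDHX and PFKFB3 and narrowly for LDHA and PDHA1.

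Of the aldolases, which cleave fructose bisphosphate into 2 triose phosphates, ALDOA averaged 6004 ± 195 and 6145 ± 148 (-0.03, adjusted p = 0.522) and ALDOC 342 ± 34.1 and 370 ± 22.3 (-0.11, adjusted p = 0.387) in NFX1-91 shRNA and control shRNA arrays. TPI1, the enzyme that interconverts those triose phosphates, had lower signals in NFX1-91 shRNA arrays with all 3 of its probe sets. Its brightest probe set had 2416, 2389 and 2483 in NFX1-91 shRNA arrays, against 5957, 5717 and 6141 in control shRNA arrays. This was a 2.43-fold fall (-1.28, SE 0.0369, adjusted p = 6.42e-08), and 0.426% of all genes fell as far or farther. The second probe set had 1774, 1717 and 1636 in NFX1-91 shRNA arrays, against 4866, 5036 and 4838 in control shRNA arrays (-1.52, SE 0.0407, adjusted p = 4.21e-07 over probe sets). The third, which lay near the middle of all probe sets in brightness, had 34.6, 31.9 and 28.2 against 227, 205 and 191 (-2.23, SE 0.113, adjusted p = 6.35e-06). Groups were far apart in each, and the exact permutation p was 0.1 in each, the smallest possible. Of all probe sets, 13.7% were called lower. The first 2 probe sets may also bind related transcripts, as their kind (_s_at and _x_at) marks, and the third is of the kind designed for 1 gene. The size of the fall thus ran from -1.28 to -2.23 on the log2 scale with the probe set read.

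**Figure D3:**
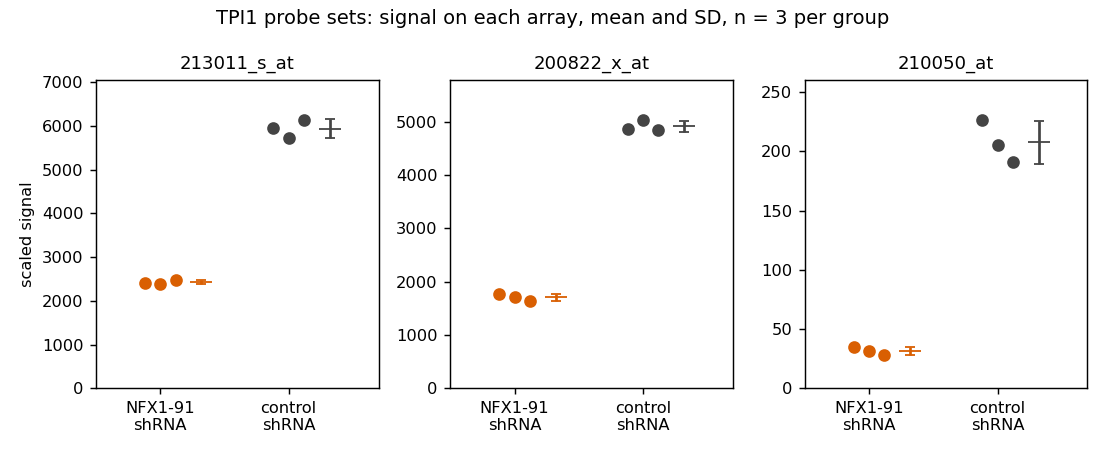
Scaled signal of the 3 TPI1 probe sets on each array, NFX1-91 shRNA left and control shRNA right, with mean and SD beside the points (n = 3 per group, axes from 0). In all 3 probe sets every NFX1-91 shRNA array lies below every control shRNA array, with means of 2430 and 5938, 1709 and 4913, and 31.6 and 208.

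TPI1 lies on chromosome 12 close to ENO2, and the tested genes nearest to it, 3 on each side, were looked at after their values could be seen. Of these 6, 4 fell and 0 rose, beside 17.8% of all genes called lower. Of the 6 nearest PCK2, 3 fell and 0 rose, with DHRS2 at -1.06, EMC9 at -0.94 and PSME1 at -0.13. Of the 6 nearest PFKFB3, 2 rose and 0 fell, beside 14.7% of all genes called higher. The risers were IL15RA (0.42, adjusted p = 0.0187) and the dim ITIH2 (26.9 ± 4.07 and 13.3 ± 3.41, 0.55, adjusted p = 0.0153). RBM17 and PRKCQ, directly on either side of PFKFB3, read -0.21 and -0.19 and were not called. Whether position plays a part was not tested. Near TPI1, the cell cycle gene CDCA3 averaged 345 ± 38.7 in NFX1-91 shRNA arrays and 446 ± 22.2 in control shRNA arrays (-0.36, adjusted p = 0.00847). The dim gene LRRC23 fell too (-0.67, adjusted p = 0.00905). GNB3 was called at 35.7 ± 30.9 and 97.1 ± 41.4 (-1.22, SE 0.398, adjusted p = 0.0401), though its groups overlapped. ENO2 was the other of the 4 that fell near TPI1. The neighbour USP5, a deubiquitinase, averaged 468 ± 38.7 and 471 ± 17.3 (-0.01, adjusted p = 0.926), and DSTNP2 read 0.11 (adjusted p = 0.502).

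In lower glycolysis 0 of 9 members rose and 2 fell in limma, or 22.2%, beside 32.5% of all genes called. Among the 9, 5 had an unadjusted p under 0.05. GAPDH, which oxidises the triose phosphate, had 10859, 10779 and 10647 in NFX1-91 shRNA arrays, against 10414, 10298 and 9811 in control shRNA arrays (0.08, SE 0.0297, adjusted p = 0.0636). Its groups were narrowly apart, and it passed without control shRNA replicate 1 (adjusted p = 0.0278), with dim genes left out (0.0283) and with the replicate number as a block (replicate block, 0.0416). The change of TPI1 was lower than that of GAPDH by 1.36 (SE 0.0569, exact permutation p = 0.1, the smallest possible). The ATP-yielding kinase PGK1 averaged 5056 ± 63.9 and 5028 ± 195 (0.01, 95% interval -0.07 to 0.09, adjusted p = 0.894), and the mutase PGAM1 5182 ± 178 and 4986 ± 199 (0.06, adjusted p = 0.34). BPGM, which makes the bisphosphoglycerate known from red cells, averaged 334 ± 42.3 and 335 ± 16.3 (-0.01, adjusted p = 0.954), and the muscle mutase PGAM2 lay below the offset at 6.20 ± 1.32 and 7.60 ± 6.19.

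The enolases, which form phosphoenolpyruvate, differed among themselves. ENO2, the form best known from neurons, had 178, 184 and 197 in NFX1-91 shRNA arrays, against 239, 238 and 262 in control shRNA arrays (-0.37, SE 0.0808, adjusted p = 0.00542). ENO1, the general form, averaged 9209 ± 164 and 8734 ± 309 and did not pass (0.08, adjusted p = 0.105), though it did without control shRNA replicate 1 (0.11, adjusted p = 0.0143). The muscle form ENO3 averaged 103 ± 6.23 and 83.4 ± 1.36 (0.26, adjusted p = 0.0759), with groups that did not overlap. The change of ENO1 exceeded that of ENO2 by 0.45 (SE 0.0819, exact permutation p = 0.1, 0.157 adjusted over the pairs). ENO3 passed with dim genes left out (adjusted p = 0.0392), with quantile normalization (0.0425), with the mean of probe sets (0.0433) and with no variance trend (0.0255). ENO1 passed with the mean of its probe sets (0.19, adjusted p = 0.0352).

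PKM encodes the pyruvate kinase of most tissues, and its splice forms M1 and M2 are not told apart here. It had 4199, 4248 and 4091 in NFX1-91 shRNA arrays, against 4897, 4835 and 5056 in control shRNA arrays (-0.24, SE 0.0327, adjusted p = 0.00038). The fall was 1.18-fold, small but larger than the spread between arrays. A second probe set, far dimmer at 102 and 86.6, read 0.22 (adjusted p = 0.338), and by the mean of both PKM read -0.01 (adjusted p = 0.946).

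LDHA, the lactate dehydrogenase subunit that favours lactate production, had 8109, 7649 and 7672 in NFX1-91 shRNA arrays, against 7166, 7300 and 7133 in control shRNA arrays (0.12, SE 0.0317, adjusted p = 0.0178). The gap between the groups was smaller than the spread among the NFX1-91 shRNA arrays. The call ended with quantile normalization (adjusted p = 0.0867, log2 fold change 0.07), with no variance trend (0.188), without NFX1-91 shRNA replicate 1 (0.0724) and without control shRNA replicate 3 (0.0553). LDHB, the subunit typical of heart, averaged 9600 ± 332 and 9222 ± 133 and did not pass (0.06, 95% interval -0.01 to 0.13, adjusted p = 0.209).

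The pyruvate dehydrogenase complex split. PDHX, the protein that anchors the E3 enzyme to the core of the complex, had 488, 513 and 549 in NFX1-91 shRNA arrays, against 930, 944 and 868 in control shRNA arrays (-0.81, SE 0.0611, adjusted p = 1.07e-05). This was a 1.75-fold fall with groups far apart, read by a single probe set. DLD, the E3 enzyme itself, had 2788, 2812 and 2705 against 2355, 2518 and 2501 (0.17, SE 0.0395, adjusted p = 0.00788), and its call ended with no variance trend (0.0784). PDHA1, the catalytic E1 alpha subunit on the X chromosome, had 1648, 1677 and 1474 in NFX1-91 shRNA arrays, against 1317, 1421 and 1387 in control shRNA arrays (0.21, SE 0.0569, adjusted p = 0.0158). Its call ended with no variance trend (0.0783), without NFX1-91 shRNA replicate 1 (0.0616) and without NFX1-91 shRNA replicate 2 (0.0877). The second PDHA1 probe set, of the kind designed for 1 gene, had 238, 236 and 285 against 161, 165 and 157 and rose by 0.60 (adjusted p = 0.00158 over probe sets), more than 1.5 times as far.

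Its partner PDHB, E1 beta, averaged 1038 ± 66.4 in NFX1-91 shRNA arrays and 1061 ± 14.8 in control shRNA arrays (-0.03, 95% interval -0.15 to 0.09, adjusted p = 0.718). DLAT, the E2 core enzyme, averaged 1401 ± 24.2 and 1257 ± 114 (0.16, adjusted p = 0.0847), passed without control shRNA replicate 3 (0.22, adjusted p = 0.0233), with median centring (0.0281) and with dim genes left out (0.0437), and had another probe set that was called higher (0.29, adjusted p = 0.0366). Of the complex, 2 of 5 genes rose and PDHX fell, beside 14.7% of all genes called higher and 17.8% lower. Below the median brightness of all genes lay 0 of the 5, so these shares are not matched for brightness.

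The pyruvate dehydrogenase kinases, which switch the complex off by phosphorylation, gave 0 calls among 4 genes in limma, beside 32.5% of all genes called. In 1 of the 4, PDK2, the unadjusted p was under 0.05. PDK1, a known target of hypoxia signalling, averaged 72.5 ± 29.2 and 56.4 ± 17.1 in NFX1-91 shRNA and control shRNA arrays (0.26, 95% interval -0.30 to 0.82, adjusted p = 0.5). PDK2 averaged 130 ± 21.3 and 169 ± 19.4 (-0.35, adjusted p = 0.0636) and passed without NFX1-91 shRNA replicate 3 (-0.43, adjusted p = 0.0474), with the replicate block (0.0387) and with dim genes left out (0.0252). A second PDK2 probe set read 0.02 (adjusted p = 0.904). PDK3 averaged 73.7 ± 10.6 and 67.2 ± 3.99 (0.10, adjusted p = 0.6), while another of its probe sets, at 73.0, 64.5 and 82.6 against 48.9, 52.8 and 49.1, was called higher (0.43, adjusted p = 0.0309). PDK4, known from fasting muscle, was dim at 36.9 ± 3.07 and 33.5 ± 7.16. The kinases were dim, and intervals this wide leave changes of moderate size undetected.

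At the branches, only PCK2 was called. This mitochondrial enzyme turns oxaloacetate into phosphoenolpyruvate and is known as a target of ATF4. It had 96.3, 97.0 and 128 in NFX1-91 shRNA arrays, against 307, 258 and 242 in control shRNA arrays. The fall was 2.32-fold (-1.21, SE 0.126, adjusted p = 6.31e-05), with every NFX1-91 shRNA array far below every control array. With an offset of 1 the change read -1.33, beside -1.29 for TPI1, so the order of these 2 genes turned with the offset. Pyruvate carboxylase PC, which makes oxaloacetate from pyruvate, averaged 75.1 ± 6.83 and 58.5 ± 4.02 (0.29, adjusted p = 0.0866), with groups that did not overlap, and passed with no variance trend (0.0407). PGM1, which links glucose phosphate to glycogen, averaged 955 ± 5.91 and 900 ± 66.9 (0.09, adjusted p = 0.305).

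**Figure D4:**
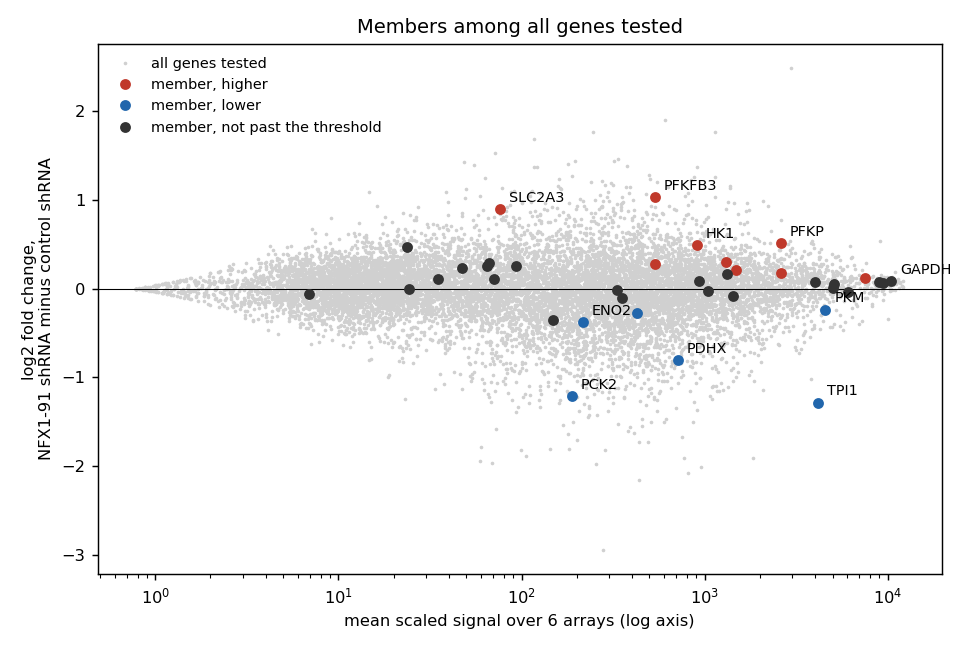
Log2 fold change, NFX1-91 shRNA minus control shRNA, against mean scaled signal over the 6 arrays (log axis) for all 11963 genes tested (small grey points) and the 38 members (large points coloured by call). TPI1 stands at the lower edge among genes of its brightness, while most of the brightest members lie close to 0.

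Members spanned the whole range of brightness. The brightest 5% of genes held 12 of them, of which PFKP, DLD and LDHA rose and TPI1 and PKM fell, that is 41.7%, beside 52.9% of all genes that bright. Apart from TPI1, no log2 fold change among these 12 exceeded 0.51 in size, the value of PFKP. Of the 10 members below the median brightness only SLC2A3 was called, or 10%, beside 12.3% of all such genes. Of 15 called members 7 had other probe sets, 9 in all, of which 6 were called the same way, 0 the opposite way and 3 not at all. The 9 members called under all 16 other settings tried were SLC2A3, HK1, PFKP, PFKFB3, TPI1, PFKL, ENO2, PDHX and PCK2. Of these, HK1, PFKP, PFKFB3, ENO2, PDHX and PCK2 have 1 probe set each. Settings that change the probe sets read could thus not move their log2 fold changes. Leaving out shared probe sets could also not move SLC2A3 and PFKL, whose probe sets are all _s_at or _x_at.

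Genes next to glycolysis were read through 9 further lists, of which 111 of 133 genes were measured, and 31 rose and 20 fell (45.9%, beside 32.5% of all genes). Without NFX1-91 shRNA replicate 2 that count was 32 in place of 51. The shares of these lists are not matched for brightness. Of all genes, 12.3% were called below the median brightness and 52.9% in the brightest 5%. Below that median lay 31 of the 111 genes, beside 5981 of all 11963. In the citric acid cycle, which burns the acetyl-CoA, 6 of 15 rose and 4 fell (66.7%), and 0 of the 15 lay below the median brightness. IDH3A, a subunit of the NAD-dependent isocitrate dehydrogenase, averaged 1956 ± 142 in NFX1-91 shRNA arrays and 1391 ± 133 in control shRNA arrays (0.49, adjusted p = 0.000694). OGDH, the E1 enzyme of the oxoglutarate dehydrogenase complex that shares DLD with pyruvate dehydrogenase, averaged 166 ± 4.56 and 286 ± 13.1 (-0.73, adjusted p = 6.57e-05). DLST, the E2 enzyme of that complex, rose by 0.30 (adjusted p = 0.000896), and SUCLG2, a succinyl-CoA ligase subunit, fell by 0.42 (adjusted p = 0.00121).

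Among the mitochondrial pyruvate carrier and the redox shuttles, which carry NADH equivalents into mitochondria, 6 of 16 rose and 2 fell. These were 50% of the list, beside 32.5% of all genes called. SLC25A11, the oxoglutarate and malate carrier, averaged 310 ± 9.89 in NFX1-91 shRNA arrays and 747 ± 57.9 in control shRNA arrays (-1.23, adjusted p = 1.84e-06). The cytosolic transaminase GOT1 averaged 1754 ± 22.1 and 1175 ± 13.4 (0.57, adjusted p = 6e-06), and the malic enzymes ME1 (0.48, and 0.29 with the mean of its probe sets) and ME2 (0.51), which form pyruvate from malate, rose as well. In the pentose phosphate pathway 2 of 9 rose and 3 fell, with PGLS at -0.40 (adjusted p = 0.00158). Of 12 glycogen genes 3 rose and 0 fell, among them the synthase GYS1 (0.29, adjusted p = 0.00424), and of 5 hexosamine genes 2 rose and 1 fell, the kinase NAGK by 0.61 upward. Other hexose enzymes and carriers gave 2 higher and 2 lower of 14, with the carriers SLC2A8 at 0.56 and SLC2A6 at -0.54.

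Of the other isoforms of pyruvate and gluconeogenic enzymes 1 of 12 rose and 2 fell, and the glucose phosphatase G6PC3 averaged 328 ± 21.8 in NFX1-91 shRNA arrays and 555 ± 17.6 in control shRNA arrays (-0.73, adjusted p = 2.93e-05, and -0.46 with the mean of its probe sets). TIGAR, a phosphatase that lowers fructose bisphosphate of the signalling kind, rose by 0.80 (adjusted p = 1.88e-05). Regulators went both ways, with 3 of 15 higher and 5 lower. HIF1A, the hypoxia-inducible factor subunit that drives many glycolytic genes, averaged 3503 ± 100 and 2800 ± 150 (0.32, adjusted p = 0.000408). Of the glucose-sensing factors, MLXIP fell by 0.55 and MLXIPL by 0.61 (-0.385 with an offset of 64), and PRKAG1, an AMP-sensing subunit of AMPK, fell by 0.48. Of 13 hypoxia targets outside glycolysis 6 rose and 1 fell, beside 14.7% of all genes called higher and 17.8% lower. Only 1 of the 13 lay below the median brightness, so these shares are not matched for brightness. The call of CA12 ended with the replicate block (adjusted p = 0.0799) and without NFX1-91 shRNA replicate 2 (0.129). With shared probe sets left out CA12 rose by 0.765 (adjusted p = 0.00266). The call of NDRG1 ended with the replicate block (0.0709), with no variance trend (0.0513) and without NFX1-91 shRNA replicate 2 (0.122). P4HA2, a collagen hydroxylase, rose by 0.44, BHLHE40 by 0.45 and the mitophagy receptor BNIP3 by 0.33, whereas the growth factor VEGFA fell by 0.36, a call that ended with the mean of its probe sets (-0.11, adjusted p = 0.302).

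**Figure D5:**
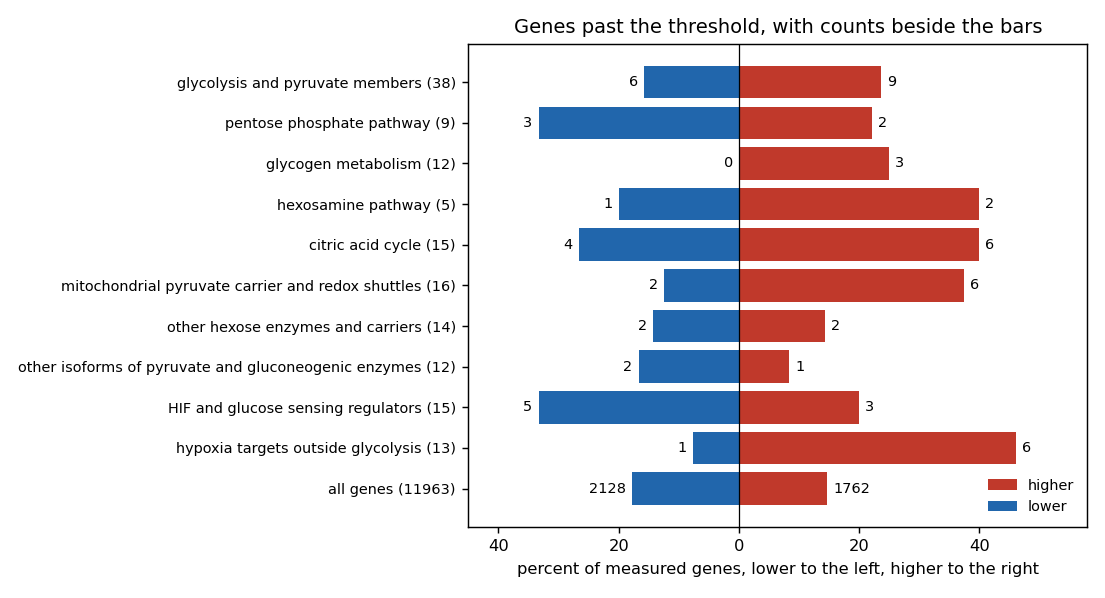
Percent of measured genes past the threshold, lower to the left and higher to the right, for the members, 9 neighbouring lists and all genes, with the number measured in brackets and the counts at the bar ends. The surplus of rises over falls, as a share of the genes measured, is widest for hypoxia targets outside glycolysis (6 and 1 of 13), and over all genes there were 1762 rises and 2128 falls. The lists are not matched for brightness.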

How the data were processed

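Biotin-labelled RNA was read on Affymetrix arrays, per the labels' protocols. The deposited table holds an intensity on a linear scale for 22215 probe sets, and each column sums to 1. The authors' summarisation and scaling are not given in the sources used here. The intensities were scaled to a mean of 500, and log2(signal + 16) was taken with no further normalization. Between 24.1% and 25.9% of an array's probe sets lay below that offset. The platform annotation gave 1 gene for 19064 probe sets, several for 1043 and none for 2108. Of the 19064, 19052 matched RefSeq (GRCh38.p14) by gene identifier.

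The test was limma (version 3.58.1, R 4.3.3) on the unpaired groups, two-sided, its eBayes step using a variance trend; p-values were Benjamini-Hochberg adjusted over all 11963 genes or 22215 probe sets. Intervals are 95% limma intervals. The scripts were tested on simulated data. Members and lists were chosen with earlier results of these data known. All measured members are named, and up to 4 called genes of each neighbouring list by smallest adjusted p. KRT18, ELF3, CDX1, CEACAM5, VIL1, COL1A1, HBB, CA12, NDRG1 and the neighbours of TPI1, PCK2 and PFKFB3 were named after their values were seen. Same-numbered arrays deviated from their group means with correlations of -0.0284, 0.0805 and -0.0212. The number of arrays limits the precision.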

Additional observations from a re-analysis of the deposited data

Results flagged for a closer look

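Probe sets annotated to SLC2A3 together with its close relative SLC2A14 were left out of the comparison of genes, and both differed between the groups, which is why they are listed here. One had signals of 67.9, 75.2 and 58.6 in NFX1-91 shRNA arrays, against 45.1, 42.2 and 42.5 in control shRNA arrays (log2 fold change 0.49, SE 0.123, adjusted p = 0.0189 by limma over probe sets). The other had 59.5, 65.0 and 56.4 against 29.3, 39.4 and 38.1 (0.57, SE 0.131, adjusted p = 0.0119). SLC2A3 and SLC2A14 cannot be told apart by these probe sets.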

How the results depend on the processing

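The settings tried were quantile normalization, median centring, offsets of 1 and 64, dim genes left out (below the 40th percentile), no variance trend, the mean of probe sets, shared probe sets left out, a replicate block, each of the 6 arrays left out, and, chosen after the data were seen, no offset. Of 601 member values under them 572 kept their side of the threshold, 13 lost a call, 16 gained one and 0 called values changed sign, and 16 values that were uncalled throughout did. The members' median of 0.08 was 0.049 with quantile normalization and 0.108 with median centring. Called members ran from 12 to 17 with an array left out, and called genes of the neighbouring lists from 32 to 48. All 3 TPI1 probe sets were called in every setting run on probe sets. Of the NFX1 probe sets 1 was called, and 0 with dim probe sets left out, which removes that one. MDH2, uncalled at -0.01, rose by 0.28 once its shared probe sets were dropped (adjusted p = 0.0162). As a replicate block the numbers gave 17 called members and 3598 called genes in place of 15 and 3890, and the labels give no pairing beyond the number. Causes of these shifts were not tested. Dim members, near the offset, have wide intervals.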
